A study of Mus musculus with 23 samples.

Results

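A set of 9 transcripts that are best known from neurons, astrocytes and oligodendrocytes were followed in preparations of mouse brain microglia. The members were chosen by gene symbol: 9 of the 53090 genes in each deposited table, with 2 for oligodendrocytes (Mbp and Mobp), 5 for astrocytes (Slc1a2, Slc1a3, Aldoc, Clu and Sparcl1) and 2 for neurons (Snap25 and Syt1). All 9 genes were in every table, and 8 of 9 passed the filter on low counts; Syt1 did not, so it is given mainly by its levels.

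Poly(A) RNA was sequenced from microglia of female C57BL/6 mice in 23 libraries of 4 groups. Y (7 libraries) were young mice and O (5 libraries) old mice. Y-re (3 libraries) and O-re (8 libraries) were young and old mice in which microglia were removed with PLX5622, an inhibitor of the receptor CSF1R given in chow, and allowed to repopulate. Control mice received the same chow without the drug; the sources used here give neither ages nor the duration of the diet and of the recovery, and do not say whether each library came from a separate animal, so p-values measure the spread between these libraries. The labels describe magnetic CD11b selection followed by culture, with a step that removes myelin, while the RNA extraction text names microglia sorted by flow cytometry. Total counts per library ranged from 43.66 to 58.19 M. Library numbers in the sample titles fall in a run from 1 to 11 (10 libraries) and a run from 12 to 24 (13 libraries); the titles do not say what the number marks, and all 3 Y-re libraries lie in the second run.

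Microglia are the resident macrophages of the brain, and they clear debris, synapses and myelin, so RNA of other brain cells can enter a microglial preparation as adhering cells, as free RNA or as engulfed material. Some of the genes followed here are also transcribed by macrophages themselves: the Mbp locus has an upstream start that gives the golli proteins of immune cells, and Slc1a3, the glutamate transporter GLAST, can be made by microglia. In a bulk library, fewer cells of a type and less RNA per cell cannot be told apart.

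The preparations carried the microglial label clearly. Csf1r, the receptor on which microglia depend, lay at 2420 to 7350 CPM (counts scaled to a common library size by the TMM method) and Cx3cr1, the fractalkine receptor, at 975 to 3290 CPM. The 9 transcripts together took 0.00738% to 0.0216% of all counts in a library.

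Upstream sequence is shown for 2 members whose levels ran in opposite directions across the libraries, Mobp and Slc1a3. RefSeq promoter entries (build GRCm38.p6) were matched for 5 of the 9 members; the 250 bases before the start are printed 5′ to 3′ on the strand of the gene. The region of Mobp is chr9:120149492-120149741 on the + strand and that of Slc1a3 is chr15:8710808-8711057 on the - strand. Capitals mark matches to GAGGAA on either strand, letters bound by PU.1, the transcription factor of macrophages.
Mobp: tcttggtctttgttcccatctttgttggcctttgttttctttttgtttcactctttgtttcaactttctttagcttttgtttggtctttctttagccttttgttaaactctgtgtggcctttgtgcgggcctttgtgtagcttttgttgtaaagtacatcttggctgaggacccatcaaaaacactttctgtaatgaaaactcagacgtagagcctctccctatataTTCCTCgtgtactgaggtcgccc
Slc1a3: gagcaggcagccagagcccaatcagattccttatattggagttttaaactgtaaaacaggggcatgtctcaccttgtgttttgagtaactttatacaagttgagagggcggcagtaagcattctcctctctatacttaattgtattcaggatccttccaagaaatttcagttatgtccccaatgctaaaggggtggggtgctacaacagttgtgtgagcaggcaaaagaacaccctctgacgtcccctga
The Mobp window held 1 match, on the strand opposite to the gene, which begins at position -23 (the base before the start is -1), and the Slc1a3 window held 0. These positions count from the RefSeq start. In the GENCODE M21 annotation, Mobp transcripts also start at 120149707 and 120149717, inside the printed window and before the match. By that annotation the match lies within the gene. Of 32851 promoter windows of 250 bases, 23.3% held at least 1 match, so 1 match is a common finding. Both windows were low in GC, at 40.8% for Mobp and 44.8% for Slc1a3, against a median of 52.4% over all windows.

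Levels of different genes were compared on TPM, a unit scaled for transcript length and library size. Slc1a3 was the most abundant member, with a median of 29.2 TPM over the 23 libraries (1.55 to 71.5), above 75.8% of the tested genes. Mbp followed at 18.5 TPM (11.9 to 27.2). The ranges of these genes overlapped, and Slc1a3 lay above Mbp in 17 of 23 libraries. A clear step separated Mbp from the rest: Aldoc, a glycolytic aldolase, had a median of 4.2 TPM (2.03 to 11.2) and lay below Mbp in 23 of 23 libraries. Sparcl1, a matricellular protein of astrocytes and blood vessels, had a median of 2.26 TPM, and Clu, the secreted chaperone clusterin, of 2.23 TPM. Their order was not fixed, with Sparcl1 above Clu in 12 of 23 libraries. Mobp, a structural protein of myelin, had a median of 1.13 TPM, Slc1a2, the glutamate transporter GLT-1, of 0.46 TPM, and Snap25, a SNARE protein of synaptic vesicle release, of 0.38 TPM. Syt1, the calcium sensor of synaptic vesicles, had a median of 0 TPM and a highest value of 0.28 TPM.

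**Figure D1:**
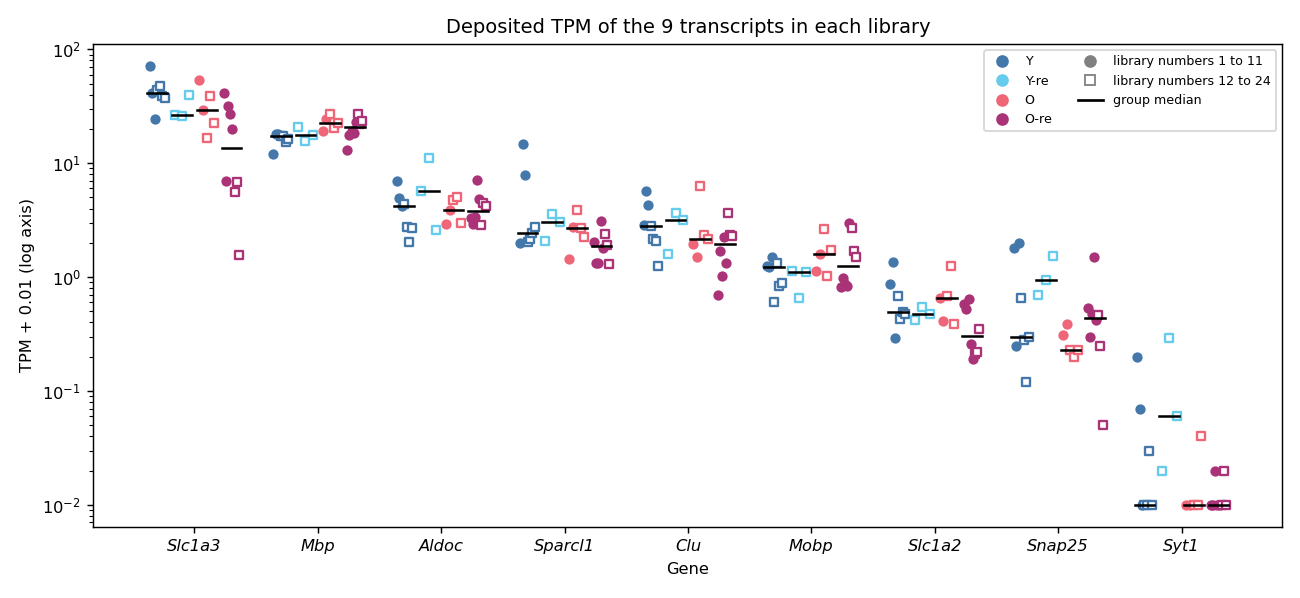
Deposited TPM plus 0.01 on a log axis for each gene, with 1 point per library, coloured by group, circles for library numbers 1 to 11, squares for 12 to 24 and black bars at group medians. The medians of Slc1a3 (29.2 TPM) and Mbp (18.5 TPM) stand above those of the other 7 genes, and Slc1a3 spreads from 1.55 to 71.5 TPM while Mbp stays between 11.9 and 27.2 TPM.

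Genes that are paired in their home cell type were far apart here. Mbp exceeded Mobp by a median ratio of 16.2 in TPM (7.72 to 29.1 over the libraries), and Slc1a3 exceeded Slc1a2 by a median ratio of 65.0 (4.56 to 113). These ratios are descriptions of the libraries, and no reference ratio from purified oligodendrocytes or astrocytes was used here.

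Mbp encodes myelin basic protein, which compacts the myelin sheath. In CPM, the Y libraries held 28.5, 36.7, 43.3, 40.0, 39.9, 35.7 and 39.0 for replicates 1 to 7 (lowest 28.5, median 39.0, highest 43.3). The O libraries held 44.7, 54.7, 65.2, 47.4 and 54.4 CPM, so all 5 lay above every Y library. The Y-re libraries held 52.3, 39.8 and 45.8 CPM. The O-re libraries ranged from 33.2 through a median of 52.8 to 71.1 CPM, and 7 of 8 lay above every Y library. For this and the other members, the share of all genes whose groups do not overlap was not computed.

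In O-re, Mbp rose against Y by 0.48 ± 0.12 on the log2 scale (SE, adjusted p = 0.0121, edgeR quasi-likelihood with Benjamini-Hochberg adjustment over 18720 genes). Group means were 52.6 ± 11 CPM in O-re (SD, n = 8) and 37.6 ± 4.72 CPM in Y (SD, n = 7). This was 1 of 2 members called in that comparison, in which 15.2% of all genes tested were called, 9.29% higher and 5.92% lower. For O against Y the difference was of like size, 0.50 ± 0.14, and missed the threshold (adjusted p = 0.0516). No member was called there, where 2.83% of genes were called. Mbp was called for O against Y by DESeq2 (adjusted p = 0.0195), by voom with quality weights (0.00382), in a fit of the 2 groups alone (0.0256) and in the fit that adds a library-number term (0.0340). It was also called without Y replicate 3 (0.0406), O replicate 1 (0.0250), O replicate 4 (0.04996), O-re replicate 1 (0.0140) or O-re replicate 6 (0.0321). It was not called with RLE scaling (0.0502), upper-quartile scaling (0.0612), no filter (0.0709), within library numbers 1 to 11 (0.45, adjusted p = 1) or without any of the other 18 libraries, and the value was lowest without O replicate 3 (0.42, adjusted p = 0.250). Both comparisons use the same 7 Y libraries. Within library numbers 12 to 24 the difference of O-re from Y was 0.67 (adjusted p = 0.00103), and within 1 to 11 it was 0.39 (adjusted p = 0.475).

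Repopulation itself was not followed by a called change of Mbp. The difference of O-re from O was -0.02 ± 0.14, and that of Y-re from Y was 0.29 ± 0.16 (adjusted p = 0.422); voom with quality weights called the latter (0.3, adjusted p = 0.0404). The 2 repopulation differences were set against each other in the interaction, which was -0.31 ± 0.21 for Mbp (adjusted p = 0.759).

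Other cell markers moved with Mbp. Monocyte and neutrophil markers summed to a median of 39.6 CPM in Y (25.2 to 131), 111 in Y-re (83.1 to 302), 282 in O (165 to 1350) and 235 in O-re (106 to 922). Of that list, 6 of 8 genes rose in O and 5 of 8 in O-re against Y, among them Ly6c2, a surface protein of inflammatory monocytes, by 6.25 ± 0.997 and 4.33 ± 0.89 on the log2 scale. Ccr2, the chemokine receptor of monocytes, reached 562 CPM in O replicate 3 and 452 CPM in O-re replicate 6, the libraries with the highest Mbp of their groups. Without O replicate 3 the Mbp difference of O from Y was 0.42, and without O-re replicate 6 that of O-re from Y was 0.41 (adjusted p = 0.0291); the part of monocyte RNA in these values was not tested. The 3 genes whose ranks over the 23 libraries were most like those of Mbp, out of 11314 searched, were Anxa4 (Spearman rho 0.964), which encodes a calcium-dependent phospholipid-binding protein, Vat1 (0.958) and Lgals3 (0.957), which encodes galectin-3. Lgals3 ranged from 36.9 to 816 CPM, with its highest value in O-re replicate 6, which also had the highest Mbp.

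The deposited tables also give, for each gene and library, a mean transcript length weighted by the estimated share of each transcript. For Mbp it ranged from 3615 to 4301 bases with a median of 4111 bases. The deposited table lists 16 Mbp transcripts. In GENCODE M21, matched by transcript identifier, the longest is 4797 bases and the next 2492 bases, and both carry the same version as in the deposited table; 5 of the 16 do, so the lengths of the other 11 could differ from those the authors used. The longest, Mbp-205, starts at the upstream start, 79324 bases before the first start of the next cluster, and transcripts from the downstream starts reach at most 2070 bases. Given those lengths, a mean of 3615 bases needs at least 48.7% of Mbp transcripts from Mbp-205, the median library at least 70.2%, and the highest at least 78.5%. The lowest mean lengths were in Y replicates 2 and 3, at 3636 and 3615 bases, and in O replicate 2, at 3845 bases; the other 20 libraries lay at 3998 bases or above. Such shares are estimates from single reads of 50 bases and depend on the authors' annotation. Coordinates of Mbp itself are not given, because the version of its gene identifier differs from that in GENCODE M21.

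**Figure D2:**
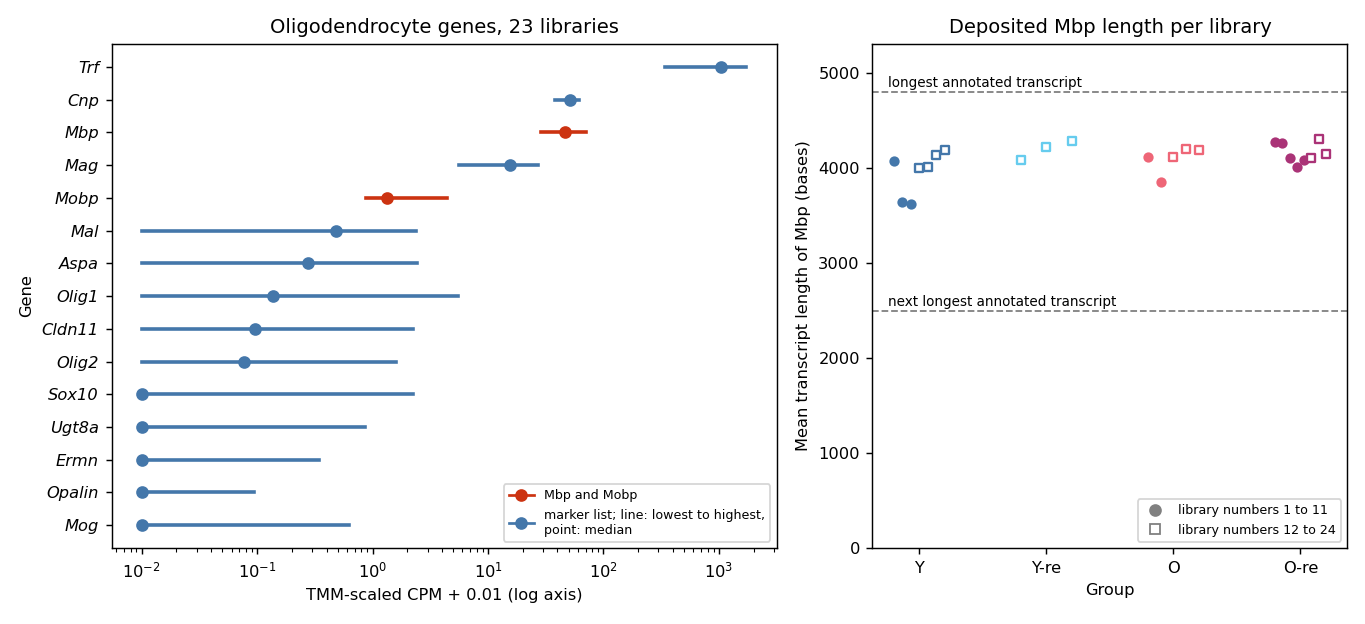
Left, TMM-scaled CPM plus 0.01 on a log axis for Mbp and Mobp (red) and oligodendrocyte markers (blue), with a line from the lowest to the highest of 23 libraries and a point at the median; right, the deposited mean length of Mbp transcripts in bases per library, with dashed lines at 4797 and 2492 bases. Mbp stands at a median of 46.6 CPM while Mog, Opalin, Ermn, Ugt8a and Sox10 have a median of 0, and every library lies between the dashed lines.

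Most defining markers of oligodendrocytes were at or near 0, with Cnp, a myelin enzyme, at 37.9 to 61.2 CPM and Mag, an adhesion protein of myelin, at 5.58 to 27 CPM as exceptions. Mog, the outer myelin glycoprotein, was at 0 in 16 of 23 libraries. Opalin was at 0 in 21 libraries, Ugt8a in 17, Ermn in 13 and Sox10, the lineage transcription factor, in 12. Of the 14 markers, 10 had a median under 1 CPM in Y. The sum of the list, 399 to 1810 CPM over the groups, came mostly from Trf, which encodes transferrin and had a median of 1050 CPM. Of the 10 markers tested, 9 were lower and 1 higher in O than in Y by sign, with 0 called, and their median log2 change was -0.92 against -0.01 over all genes. In O-re against Y only Sox10 was called, lower. Mbp, with the opposite sign, differed from 9 of these 10 markers in direction.

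Mobp was low in all libraries, with 39 to 204 counts each. In CPM the Y libraries held 1.02, 1.10, 2.55, 0.886, 1.07, 1.21 and 1.29, and the O libraries 1.28, 2.39, 4.0, 0.864 and 2.57. The Y-re libraries held 1.77, 1.02 and 1.70 CPM, and O-re ran from 1.16 through a median of 1.84 to 4.41 CPM. The groups overlapped in every comparison, although 8 of 8 O-re libraries lay above the Y median. The differences were 0.77 ± 0.40 for O against Y (adjusted p = 0.373) and 0.80 ± 0.36 for O-re against Y (adjusted p = 0.132), and neither was called. Mobp was called for O-re against Y by voom with quality weights (1.03, adjusted p = 0.00894), without Y replicate 3 (1.05, adjusted p = 0.0480) and within library numbers 12 to 24 (1.46, adjusted p = 0.0162). In 9 of 23 libraries its deposited mean length was 2609 bases (within 0.005 bases), the length of Mobp-204, a transcript annotated as a target of nonsense-mediated decay. Of 6849 exonic bases of Mobp (chr9:120149707-120181484, + strand), 79 are shared with Gm38642 on the same strand, so reads there cannot be assigned to 1 gene with certainty. Mbd2 (rho 0.888) and Rab7 (0.868), a GTPase of late endosomes, were among the genes ranked most like Mobp.

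**Figure D3:**
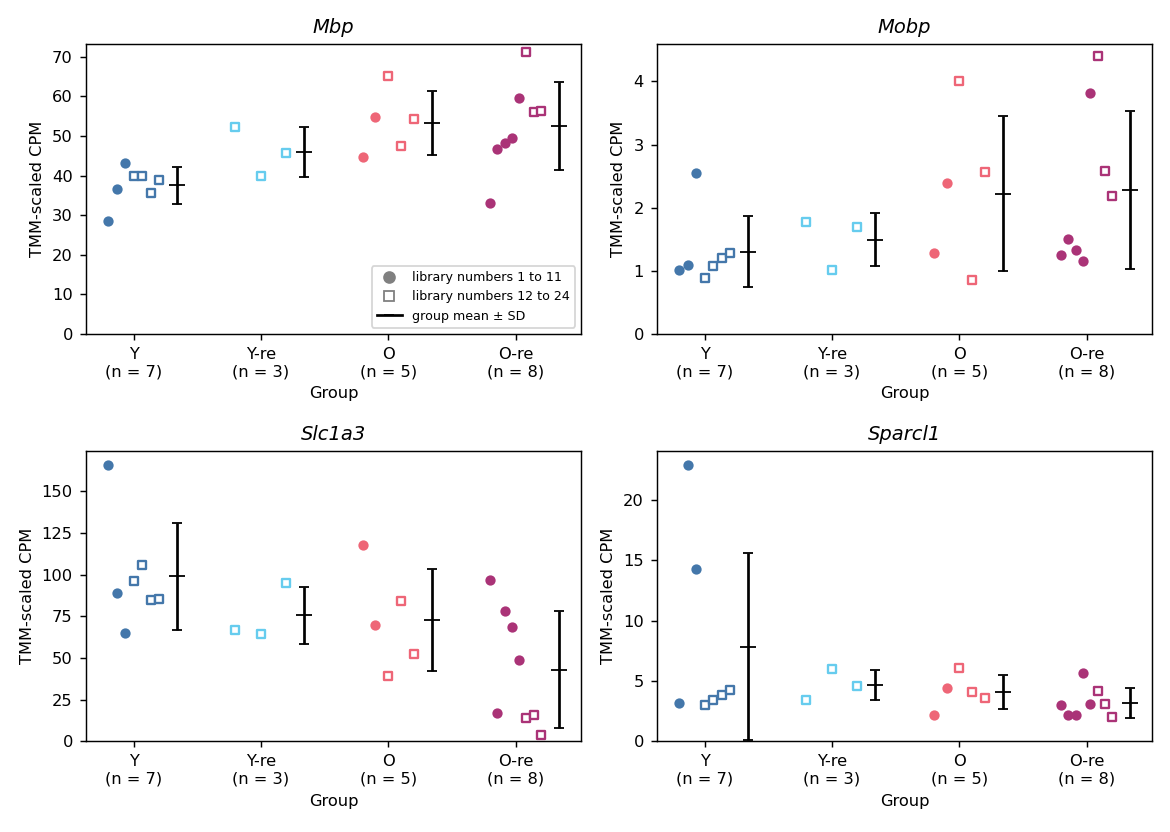
TMM-scaled CPM of Mbp, Mobp, Slc1a3 and Sparcl1 on linear axes from 0, by group, with 1 point per library, circles for library numbers 1 to 11, squares for 12 to 24, and the group mean ± SD beside the points. All 5 O libraries lie above every Y library for Mbp, although that difference was not called in the main fit. For Slc1a3, 4 O-re libraries lie between 3.55 and 17.2 CPM, and for Sparcl1, Y replicates 2 and 3 stand at 22.9 and 14.3 CPM.

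Slc1a3 (chr15:8634124-8710764, - strand) takes up glutamate from the synaptic cleft. The Y libraries held 166, 89.1, 65.3, 96.3, 106, 84.8 and 85.2 CPM for replicates 1 to 7, and the Y-re libraries 67.1, 64.6 and 95.1 CPM. The O libraries held 118, 70.0, 39.0, 84.0 and 52.2 CPM. The O-re libraries held 97.0, 17.2, 78.3, 68.5, 48.8, 14.0, 15.8 and 3.55 CPM, so that 5 of 8 lay below every Y library and 4 below every O library, while replicate 1 lay among the Y libraries.

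Over all libraries Slc1a3 was not called: the difference of O-re from Y was -1.21 ± 0.46 (adjusted p = 0.0741), that of O-re from O -0.76 ± 0.49 (adjusted p = 0.664) and that of O from Y -0.45 ± 0.52 (adjusted p = 0.758). In O-re against O, 0.278% of genes were called and 0 of 8 members. The 2 runs of library numbers differed. Within 12 to 24, the 3 O-re libraries held 14.0, 15.8 and 3.55 CPM against 84.8 to 106 CPM in 4 Y libraries and 39.0 to 84.0 CPM in 3 O libraries, with no overlap. The difference there was -3.06 from Y (adjusted p = 2.3e-04), -2.4 from O (adjusted p = 0.00687) and -2.79 from Y-re (adjusted p = 9.1e-04), and the interaction was -2.13 (adjusted p = 0.0370). Many genes were called in that run: 41.1% for O-re against Y, 12.7% against O, 36.3% against Y-re and 8.87% in the interaction. Within 1 to 11 the difference of O-re from Y was -0.78 (adjusted p = 0.539). The test of the difference between the runs gave -2.28 ± 0.68 (adjusted p = 0.0747). Adding a library-number term to the fit gave -1.77 for O-re against Y, which was called (adjusted p = 0.00587), as was -2.1 by voom with quality weights (adjusted p = 2.2e-04). It was also called without O-re replicate 1 (-1.47, adjusted p = 0.0202) or replicate 3 (-1.39, adjusted p = 0.0466).

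Microglial markers were low in the same libraries. Sall1, the transcription factor that maintains microglial identity, held 105, 53.4, 96.8 and 36.8 CPM in O-re replicates 2, 6, 7 and 8, where Slc1a3 was lowest, and 121 CPM in O replicate 3, the library next in order for both genes; it ranged from 310 to 490 CPM in Y. Csf1r lay at 2420 to 3480 CPM in the O-re libraries numbered 12 to 24, against 6390 to 7350 CPM in Y. In O-re replicate 2 it held 4930 CPM, within the 3450 to 7170 CPM of the O-re libraries numbered 1 to 11. Of 10 microglial markers, 10 were lower in O-re than in Y by sign and 3 were called (Olfml3, P2ry12 and Csf1r), with a median log2 change of -0.72 against -0.02 over all genes; P2ry12, a purine receptor of resting microglia, fell by 1.20 ± 0.35 on the log2 scale and Olfml3 by 0.80 ± 0.18. Their part in the Slc1a3 result was not tested. The sum of 6 border macrophage markers moved the other way, from a median of 107 CPM in Y (50.0 to 188) to 502 CPM in O-re (51.7 to 1040). By sign 5 were higher and 1 lower, and 4 of 6 were called higher, among them F13a1 (3.35 ± 0.66) and Pf4 (2.45 ± 0.58). Lyve1 (0.35 ± 0.51) and Cd163, which was lower (-0.73 ± 0.38), were not called. The genes ranked most like Slc1a3 were Prkca (rho 0.966), a protein kinase C, Usp2 (0.962), a deubiquitinase, and Dagla (0.955), which makes the endocannabinoid 2-AG.

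Of 17 astrocyte markers, 13 were lower and 4 higher in O-re than in Y by sign, with a median log2 change of -0.67 against -0.02 over all genes. Aqp4, the water channel of astrocyte endfeet, had a median of 0.381 CPM, Slc4a4 of 0.300 CPM and Gja1, connexin 43, of 1.08 CPM. In the 4 libraries with the lowest Slc1a3, Gja1 held 0.413, 11.7, 4.34 and 9.29 CPM (O-re replicates 2, 6, 7 and 8), and it held 5.44 CPM in O replicate 3. Gja1 was among the 4 markers that were higher in O-re than in Y. The list did not move together in those O-re libraries. Ndrg2 was low, at 1.15, 1.79, 1.27 and 1.18 CPM, against 3.83 to 6.45 CPM in Y. Glul held 1140, 398, 549 and 372 CPM, against 1330 to 1940 CPM in Y. Aqp4 held 0.188, 0.115, 0.772 and 0 CPM, against 0.125 to 1.91 CPM in Y. Plpp3 held 0.225, 3.67, 2.84 and 3.34 CPM, against 0.812 to 3.75 CPM in Y. S100b held 0.582, 2.3, 2.52 and 2.54 CPM, against 1.09 to 3.65 CPM in Y. The part of astrocyte RNA in the Slc1a3 result was not tested. In O-re against Y, 1 of the 17 markers was called higher and 3 were called lower. Apoe, a lipid carrier that macrophages also make, rose by 1.12 ± 0.28, and among those that fell were Atp1b2, by 1.97 ± 0.49, and Ndrg2, by 1.03 ± 0.34. Atp1b2 stood at 9.93 CPM in Y replicate 2, against 0.812 to 1.41 CPM in the rest of Y and 0.243 to 1.1 CPM in O-re. The part of that library in the Atp1b2 difference was not tested. In Y-re against Y, only Apoe of this list was called, higher by 1.59 ± 0.35, where 1.34% of all genes were called. The summed list, a median of 9410 CPM in Y (5460 to 10800), 24100 in Y-re (17200 to 25900), 10200 in O (6670 to 14000) and 16200 in O-re (8420 to 26300), was mostly Apoe.

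Slc1a2 (chr2:102658659-102790784, + strand) carries most glutamate uptake in the forebrain. It held 3.59, 5.43, 2.19, 4.04, 2.16, 2.05 and 2.65 CPM in Y and 2.96, 0.752, 2.42, 1.96, 0.768, 1.19, 1.42 and 2.31 CPM in O-re, and 5 of 8 O-re libraries lay below every Y library. O ran from 2.11 to 3.89 CPM and Y-re from 1.4 to 3.27 CPM. The difference of O-re from Y was -0.87 ± 0.31 (adjusted p = 0.0588) and was not called; DESeq2 called it (adjusted p = 0.0279), as did upper-quartile scaling (0.0497), voom with quality weights (0.0245) and the fit with a library-number term (0.0387). It was called without Y replicate 3 (0.0472), O-re replicate 1 (0.0217) or O-re replicate 3 (0.0460), and the value stayed between -1.01 and -0.67 whichever library was left out. Of its 13133 exonic bases, 189 are shared with Gm13872 on the opposite strand; the sources used here do not say whether counting used strand. Its nearest genes by rank were Wdr37 (rho 0.731), Kdm5b (0.717) and Mier3 (0.702).

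In CPM, Aldoc (chr11:78322968-78327781, + strand) was the one astrocyte member with higher values in the treated and old groups. In TPM its medians were 4.2 in Y, 5.7 in Y-re, 3.9 in O and 3.78 in O-re, with no rise in O or O-re. Its deposited mean length ranged from 688 to 1789 bases over the libraries. Y held 2.86, 2.71, 2.34, 1.61, 1.77, 1.56 and 2.08 CPM and Y-re 3.29, 4.89 and 2.34 CPM. O ran from 2.37 to 3.77 CPM, and O-re from 2.35 to 4.07 CPM with 8 of 8 libraries above the Y median. The differences from Y were 0.54 ± 0.20 in O-re (adjusted p = 0.0726), 0.72 ± 0.26 in Y-re (adjusted p = 0.186) and 0.46 ± 0.23 in O (adjusted p = 0.343), none of them called. Within library numbers 12 to 24 it was called in Y-re (1.03, adjusted p = 0.0373), where 9.30% of genes were called, and in O-re (0.84, adjusted p = 0.0288). DESeq2 (adjusted p = 0.0450) and voom with quality weights (0.00821) also called it in O-re, as did the fit without O-re replicate 1 (0.0463), and voom called it in Y-re (0.67, adjusted p = 0.0312). Amot (rho 0.726), Dda1 (0.725) and Lypla2 (0.718) were ranked most like Aldoc.

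Clu (chr14:65968483-65981547, + strand) ran from 1.03 to 5.21 CPM in Y, 1.54 to 3.42 in Y-re, 1.3 to 4.51 in O and 0.714 to 3.61 in O-re, with overlap in every comparison. Its difference of O-re from Y was -0.81 ± 0.37 (adjusted p = 0.141), and this changed sign between the runs of library numbers, with 0.34 within 12 to 24 (adjusted p = 0.545). The difference between the runs was 2.20 ± 0.58 (adjusted p = 0.0583). Col11a2 (rho 0.786), Trim12c (0.708) and Cnp (0.676), a myelin enzyme on the oligodendrocyte list, were ranked most like Clu.

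Sparcl1 (chr5:104079111-104113733, - strand) was the other called member. Y held 3.19, 22.9, 14.3, 2.98, 3.42, 3.81 and 4.29 CPM for replicates 1 to 7. Only replicates 2 and 3 stood out, and the other 5 Y libraries lay within the range of the O libraries, 2.21 to 6.06 CPM. Y-re held 3.46, 5.95 and 4.55 CPM, and O-re 3.02, 2.22, 2.20, 5.68, 3.11, 4.18, 3.09 and 2.04 CPM.

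Sparcl1 fell in O-re against Y by 1.297 ± 0.41 on the log2 scale (adjusted p = 0.0340). Without Y replicate 2 the difference was -0.72 (adjusted p = 0.169), without Y replicate 3 it was -1.08 (adjusted p = 0.0734), and within library numbers 12 to 24, which hold neither, it was -0.22 (adjusted p = 0.579). The call was also lost without O-re replicate 2, 3, 5, 7 or 8 (adjusted p = 0.0582, 0.0507, 0.0539, 0.0590 and 0.0674), in the fit of the 2 groups alone (0.0653) and in voom with quality weights (-0.46, 0.303).

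The same Y libraries stood apart in vascular and glial markers. Cldn5, the tight-junction protein of brain endothelium, held 7.06 and 7.73 CPM in Y replicates 2 and 3 and 0.221 to 2.53 CPM in the other 21 libraries. Rgs5, a pericyte gene, held 6.47 and 12.8 CPM there and at most 2.47 CPM elsewhere. Y replicate 2 alone was high in Olig1 (5.48 CPM), Pdgfra (6.41 CPM) and Tnr (10.6 CPM), genes of oligodendrocytes and their precursors. Mbp was not high in that library, at 36.7 CPM. Nedd4 (rho 0.769) and Ptprb, an endothelial phosphatase (0.704), were among the genes ranked most like Sparcl1. The part of these cells in the Sparcl1 result was not tested.

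Snap25 (chr2:136713453-136782428, + strand) had 2 to 114 counts in a library. Y held 1.67, 0.285, 1.74, 0.591, 0.278, 0.132 and 0.329 CPM, Y-re 0.876, 1.20 and 1.63 CPM, and O 0.241, 0.459, 0.265, 0.222 and 0.224 CPM. The O-re libraries ran from 0.0420 through a median of 0.450 to 2.07 CPM. Y-re and O did not overlap, but no comparison between those groups was made. The differences were -1.34 ± 0.71 for O against Y (adjusted p = 0.388) and 0.78 ± 0.77 for Y-re against Y (adjusted p = 0.705), and voom with quality weights called the latter (1.95, adjusted p = 0.00473). Snap25 was lower in library numbers 12 to 24 than in 1 to 11 by -1.59 ± 0.46 on the log2 scale beside the group term (adjusted p = 0.0321); 1923 genes were called for that term, Snap25 included. The genes ranked most like Snap25 were Pfdn5 (rho 0.878), Rpl11 (0.86), a ribosomal protein, and Hagh (0.831).

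Syt1 (chr10:108497650-109010982, - strand) was at 0 in 14 of 23 libraries, which allows up to 0.0544 to 0.0689 CPM there (3 counts, counting error only), and had at most 26 counts. Y replicate 1 held 0.542 CPM and Y-re replicate 2 held 0.444 CPM. Y-re was the one group with no library at 0, at 0.0427, 0.444 and 0.132 CPM. All 8 O-re libraries lay below every Y-re library in CPM but not in counts. Y-re replicate 1 (0.0427 CPM) and O-re replicates 3 (0.039 CPM) and 7 (0.0417 CPM) each held 2 counts, so scaling alone separated them. Syt1 was in the fits with no filter and in those without Y-re replicate 1 or 3, and was called in none of the 6 contrasts there. Other neuronal markers were as low: Stmn2, Nefl, Meg3, Gad1 and Slc17a7 had medians of 0.0854, 0.0957, 0.0662, 0.0585 and 0.167 CPM. The sum of 15 neuronal markers had a median of 95.3 CPM in Y (70.4 to 131), 140 in Y-re (138 to 201), 163 in O (99.6 to 244) and 176 in O-re (83.6 to 228). In O-re against Y, 3 of 14 tested neuronal markers were higher and 1 lower; Olfm1, a secreted olfactomedin, rose by 3.94 ± 0.69 and Syn1, a synapsin, by 2.62 ± 0.82, and Olfm1 was also called in O against Y, by 3.64 ± 0.72.

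**Figure D4:**
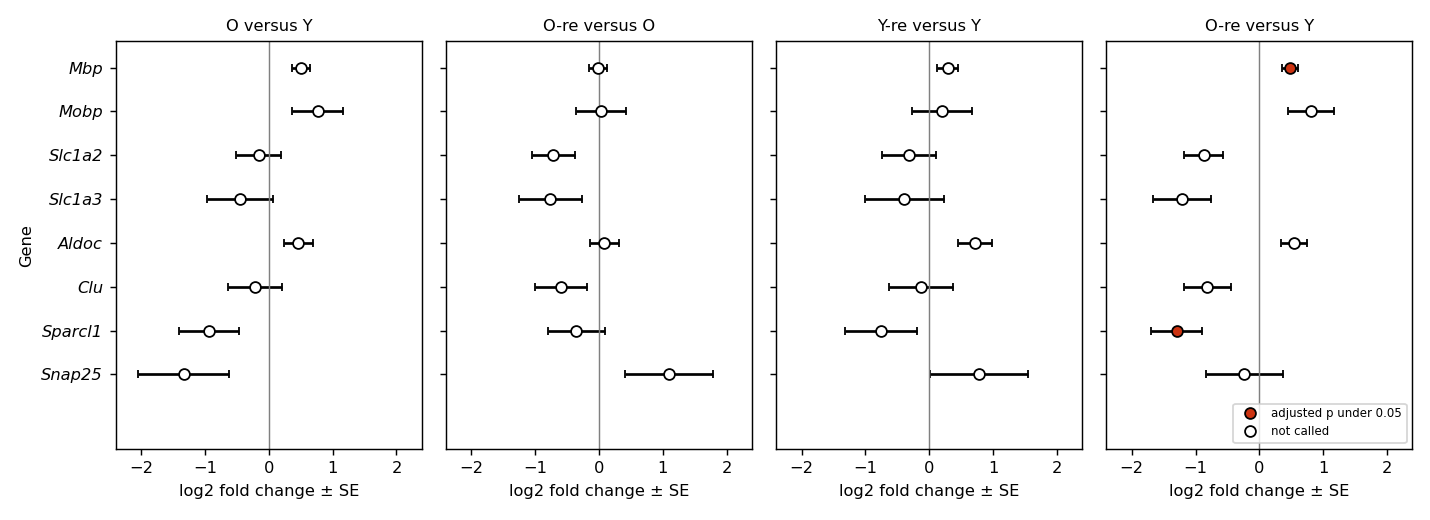
Log2 fold change ± SE from edgeR for 8 members in 4 comparisons, with filled points at an adjusted p under 0.05. Only Mbp (0.48) and Sparcl1 (-1.297) in O-re against Y are filled, and 4 of 5 astrocyte members lie below 0 in that panel.

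Set side by side, the members moved in both directions. In O-re against Y, 1 of 8 members rose and 1 of 8 fell, against 9.29% and 5.92% of all genes, so the share called was near that of all genes. An unadjusted p under 0.05 was reached by 2 of 2 oligodendrocyte members, 5 of 5 astrocyte members and 0 of 1 tested neuronal members, against 30.5% of all genes. Of the astrocyte members, 1 was higher and 4 were lower. The members were chosen with earlier results of these data known and some are correlated, so these counts do not test the set. The median log2 difference of the 5 astrocyte members was -0.87 in O-re against Y, -0.22 in O against Y and -0.59 in O-re against O, against -0.02, -0.01 and 0.00 over all genes. No member was called in O-re against Y-re or in the interaction, where 0% of the 18720 genes were called by edgeR; 2183 and 1542 genes had an unadjusted p under 0.05 there, none of them a member, and DESeq2 called 92 and 46 genes. By DESeq2 no member was called in these comparisons. In O-re against Y-re, voom with quality weights called Slc1a3 (-1.84, adjusted p = 0.00989) and Snap25 (-1.83, adjusted p = 0.0244), and library numbers 12 to 24 called Snap25 (-2.51, adjusted p = 0.0145) and Mbp (0.39, adjusted p = 0.0353) beside Slc1a3. Within library numbers 12 to 24, Mbp was called in O against Y (0.53, adjusted p = 0.0116), where 15.7% of genes were called.

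Across the 23 libraries, 4 of 36 pairs of members were correlated after adjustment over the 36 pairs (log2 CPM with a prior count of 2, 100000 permutations, two-sided). Mbp and Mobp rose together, with Pearson's r of 0.798 (p = 2e-05, adjusted 0.00072) and Spearman's rho of 0.759 (p = 7e-05), and r was 0.764 without the 2 libraries farthest from the median of Mbp. This was also seen within library numbers 12 to 24 (r = 0.895, adjusted p = 0.00216) and for deviations from the group means (r = 0.761, adjusted p = 0.00288), while within 1 to 11 r was 0.682 (adjusted p = 0.259). It was called with TPM in place of CPM too (r = 0.710, adjusted p = 0.00396).

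Slc1a3 ran against both. Its r with Mbp was -0.633 (permutation p = 0.00116, adjusted 0.0139) with rho of -0.770 (p = 5e-05), and -0.522 without the 2 farthest libraries. Its r with Mobp was -0.555 (permutation p = 0.00483, adjusted 0.0435) with rho of -0.704 (p = 0.00024), and -0.485 without the 2 farthest. For Mbp and Slc1a3, r was -0.550 within library numbers 1 to 11 and -0.668 within 12 to 24, and -0.572 for deviations from group means, none of them past the threshold after adjustment (adjusted p = 0.425, 0.175 and 0.184). For Mobp and Slc1a3 the values were -0.394, -0.620 and -0.463, also not called (adjusted p = 0.584, 0.237 and 0.272), and with TPM r was -0.423 (adjusted p = 0.173).

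Clu and Sparcl1 had r of 0.635 (permutation p = 0.00075, adjusted 0.0135) and rho of 0.569 (p = 0.00523), with 0.625 without the 2 farthest libraries. Within the runs r was 0.804 and 0.448, and 0.549 for deviations from group means, none called (adjusted p = 0.0810, 0.441 and 0.109). The glutamate transporters Slc1a2 and Slc1a3 were correlated by rank (rho 0.586, adjusted permutation p = 0.0366) but not by r (0.473, adjusted permutation p = 0.144). Snap25 and Syt1 had r of 0.356 (adjusted permutation p = 0.308).

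**Figure D5:**
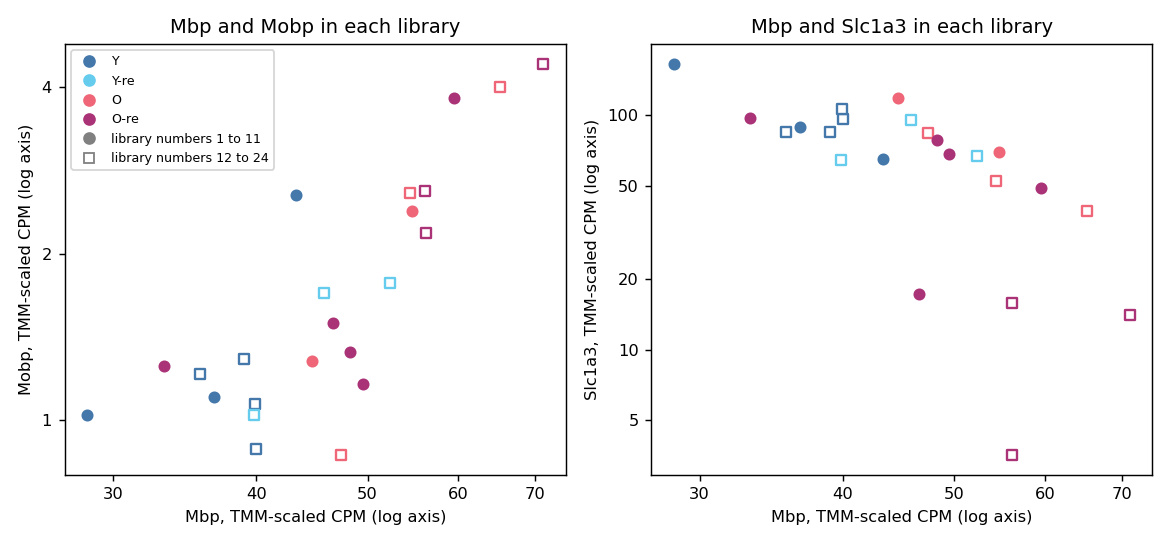
Mbp against Mobp (left) and against Slc1a3 (right), TMM-scaled CPM on log axes, 1 point per library, coloured by group, circles for library numbers 1 to 11 and squares for 12 to 24. Mobp rises with Mbp (r = 0.798) and Slc1a3 falls (r = -0.633), with 4 O-re libraries at 3.55 to 17.2 CPM of Slc1a3 below the rest.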

How the data were processed

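Per the submitters' processing notes, reads were checked with FastQC 0.11.5 and processed with STAR and RSEM on mouse build GRCm38; those notes name no annotation or strand setting. The authors deposited, per the file headers, per-library RSEM gene tables with expected counts (estimated counts that need not be whole), TPM and a mean transcript length. Within 1e-06, 87.26% of the deposited expected counts and 100% of the members' values were whole; all were rounded. Counts were tested with edgeR 4.0.16 (R 4.3.3): filterByExpr left 18720 genes, TMM scaling, 1 coefficient per group over all 23 libraries, glmQLFit and glmQLFTest for 6 contrasts, with genes called where the Benjamini-Hochberg value was under 0.05. The test was checked on simulated counts. Alternatives used DESeq2 1.42.0, limma 3.58.1 (voom), other scalings, no filter, the runs of library numbers and each library left out. Deposited TPM served for levels between genes. Transcript lengths and coordinates came from GENCODE M21, for genes of identical version. Replicate numbers follow accession order and pair nothing. The members and lists were chosen with earlier results of these data known. The text names all 9 members, called genes of the marker lists with the largest changes, other listed genes where a list is described, and per member the 3 genes with the most similar ranks at a mean of at least 1 CPM. Some genes that this rule names are not reported here.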

Additional observations from a re-analysis of the deposited data

Results flagged for a closer look

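Of 27 groups of 4 to 10 libraries tested with Dixon's criterion at the 95% level, 7 held a library far from the others. Chance flags about 1 in 20 groups of normally distributed values. These were CPM on the linear scale, near 0 for some genes, so that rate need not hold here. Mobp stood at 2.55 CPM in Y replicate 3, against 0.886 to 1.29 CPM in the other Y libraries. Slc1a3 stood at 166 CPM in Y replicate 1, with the next at 106 CPM. Clu stood at 4.51 CPM in O replicate 3, with the next at 2.19 CPM. Snap25 stood at 0.459 CPM in O replicate 2 (next 0.265) and at 2.07 CPM in O-re replicate 4 (next 0.653). Syt1 stood at 0.542 CPM in Y replicate 1 (next 0.163) and at 0.0895 CPM in O replicate 5, where the other 4 libraries were at 0. With those at 0, any count in O replicate 5 would have been flagged. Sparcl1 in Y was not among the flagged groups, because its 2 high libraries lie near each other.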

How the results depend on the processing

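No paired analysis was possible because replicate numbers follow accession order and the titles give each library a number of its own. The count of members called in O against Y was 0 in the main fit, which called 2.83% of all genes. It became 1 with DESeq2 (5.18% of genes called), voom with quality weights (12.6%) and the 2 groups fitted alone (4.09%). A library-number term (3.3%) and library numbers 12 to 24 (15.7%) also gave 1. With 1 library left out it was 0 to 1. In O-re against Y the count was 2 in the main fit, which called 15.2% of all genes. It became 4 with DESeq2 (19.7% of genes called), 5 with voom (35.5%) and 1 with the 2 groups fitted alone (15.8%). A library-number term gave 4 (24.5%), library numbers 1 to 11 gave 0 (0.0107%) and 12 to 24 gave 4 (41.1%). With 1 library left out it was 1 to 5, with 5 reached without O-re replicate 1 (25.7%). The count rose from 0 to 1 within 12 to 24 for O-re against O (12.7% of genes called) and for the interaction (8.87%). For Y-re against Y it rose to 3 with voom (13.8%) and to 1 within 12 to 24 (9.3%). For O-re against Y-re it rose to 2 with voom (17%) and to 3 within 12 to 24 (36.3%). Correlated pairs fell from 4 to 0 within 1 to 11, 1 within 12 to 24 and 1 for deviations from group means. For Sparcl1 and Mbp the libraries involved are named with their values above.

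Signs that turned were all of values not called. Within 12 to 24 they were Slc1a2 (0.02), Clu (0.58) and Sparcl1 (0.35) in O against Y, Mbp (0.14) and Snap25 (-0.12) in O-re against O, Clu (0.42) and Sparcl1 (0.39) in Y-re against Y, Clu (0.34) in O-re against Y, and Sparcl1 (-0.95) and Snap25 (-2.04) in the interaction; within 1 to 11, Mobp in O-re against O (-0.02). With voom they were Mbp (0.05) in O-re against O, Slc1a2 (0.05), Clu (0.16) and Sparcl1 (0.07) in Y-re against Y, Snap25 (0.11) in O-re against Y, Aldoc (0.01) in O-re against Y-re, and Sparcl1 (-0.45) and Snap25 (-1.62) in the interaction. With a library-number term they were Mbp (0.02) in O-re against O, Slc1a3 (0.04) in Y-re against Y, and Sparcl1 (-0.21) and Snap25 (-1.29) in the interaction. With 1 library left out the ranges crossed 0 in O against Y for Slc1a2 (-0.30 to 0.05) and Clu (-0.58 to 0.02); in O-re against O for Mbp (-0.09 to 0.06) and Mobp (-0.17 to 0.36); in Y-re against Y for Slc1a2 (-0.54 to 0.02) and Clu (-0.34 to 0.14); in O-re against Y for Snap25 (-0.84 to 0.15); in O-re against Y-re for Aldoc (-0.39 to 0.13); and in the interaction for Mobp (-0.41 to 0.16), Sparcl1 (-0.18 to 0.59) and Snap25 (-0.29 to 0.57). The cause of these changes was not tested. Snap25 and Syt1, with at most 114 and 26 counts, are limited by depth.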
